A study of Rattus norvegicus with 4 samples.

Results

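Aquaporin genes were examined in surface colonocytes, the absorptive epithelial cells that face the lumen of the gut, from the distal colon of Wistar rats. The family was taken as 9 named genes, Aqp1, Aqp2, Aqp3, Aqp4, Aqp5, Aqp7, Aqp8, Aqp9 and Aqp11, and all 9 were measured, each by 1 row with a single gene symbol, among 13215 named genes and 19403 rows. A row is a transcript cluster of an Affymetrix rat exon array, the set of probes that stands for a gene. Of 4 rats aged 12 weeks, each hybridized to its own array, 2 received aldosterone and 2 received vehicle. Aldosterone was given for 2 h as a subcutaneous injection of 50 µg/100 g body weight together with 10 µg/kg per hour from an implanted pump, and at 100 nM in the solution in which the everted colons were shaken for 40 min. Vehicle rats had the same injection, pump and shaking without the hormone. Both groups had lost their adrenal glands 4 days before, which removes glucocorticoids as well as aldosterone, and both drank 0.9% NaCl. Values are the authors' log2 expression values, and differences are aldosterone minus vehicle.

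Aquaporins are membrane proteins that let water cross the lipid bilayer along an osmotic gradient. The aquaglyceroporins among them, Aqp3, Aqp7 and Aqp9, also pass glycerol, while Aqp11 lies mostly inside the cell. In the colon, absorbed sodium draws water from the lumen, and Aqp8 and Aqp3 are the channels best known from surface colonocytes. In the collecting duct of the kidney, another target of aldosterone, vasopressin moves Aqp2 to the apical membrane and water leaves the cell through Aqp3 and Aqp4.

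The 9 measured genes of the surface colonocyte list lay at means of 10.28 to 12.40, with the keratin gene Krt20 at 11.19 and 11.26 in aldosterone rats and 11.18 and 11.14 in vehicle rats. The defining genes of endothelium (3 measured), smooth muscle and fibroblasts (5), enteric glia and neurons (4) and dividing crypt cells (5) all had means below 4. The 4 measured goblet cell genes did not move together. Tff3 was 9.44 and 11.30 in aldosterone rats and 11.12 and 10.74 in vehicle rats, and Agr2 was 7.69 and 8.52 in aldosterone rats and 7.89 and 7.91 in vehicle rats. Zg16 was 6.39 and 8.06 in aldosterone rats and 5.14 and 4.45 in vehicle rats, with no overlap, and Spink4 had a mean of 1.88. The treatment was checked with 5 genes that corticosteroids are known to change, namely Fkbp5, Per1, Scnn1g, Sgk1 and Tsc22d3. All 5 stood higher in both aldosterone rats than in both vehicle rats, as did 16.7% of all rows. This list was chosen with earlier results of these data known, so its count is a description and no independent check. In limma with a constant prior variance, 0 of 19403 rows passed an adjusted p of 0.05, which is 0% of rows, while 879 rows (4.53%) had an unadjusted p under 0.05. With a prior variance that follows the level of a row (intensity trend), 21 rows passed, or 0.108%, including 4 of these 5 genes (all but Per1). In RNA extracted from many cells together, fewer cells of a type and less RNA per cell cannot be told apart.

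None of the 9 aquaporin genes passed the adjusted threshold in either fit, with an adjusted p of 1.00 for each in the constant-prior fit. The smallest adjusted p with the intensity trend was 0.751, for Aqp11. At an unadjusted p under 0.05, which 2.19% of all rows passed with higher and 2.34% with lower values in aldosterone rats, Aqp11 was the only one of the 9 and was lower. Aqp3, Aqp8, Aqp11 and Aqp7 had a mean above 4 over the 4 arrays, as did 24.8% of all rows. Aqp7 was the nearest above that mark, at 4.34, and Aqp5 the nearest below it, at 3.27. A mean above 4 did not always mean signal on every array, since Aqp7 exceeded 4 on 2 arrays and Aqp11 on 3. The groups did not overlap for Aqp8 and Aqp2, both higher in aldosterone rats, and for Aqp11, which was lower. That is 3 of 9, where 27.8% of all rows had groups that did not overlap (16.7% higher and 11.1% lower). Of the 9 differences, 7 were positive and 2 negative, with a median of 0.11 beside 0.024 over all rows. Different rows rest on different probes, so levels are compared within a gene only.

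**Figure D1:**
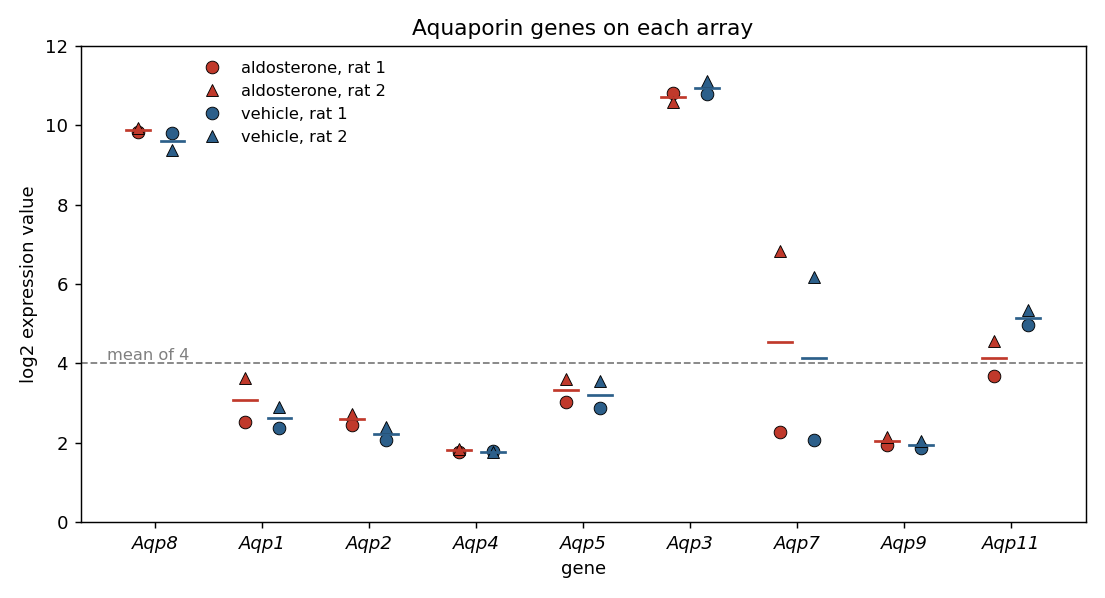
Log2 expression value (vertical axis) of each aquaporin gene in the aldosterone rats (red, left) and the vehicle rats (blue, right), with circles for rat 1, triangles for rat 2 and bars for group means. Aqp7 stands at 6.83 and 6.18 in rat 2 of each group and at 2.27 and 2.08 in rat 1, while Aqp3 and Aqp8 lie above 9 on every array.

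Aqp8, a water channel of the colonocyte that also carries hydrogen peroxide and ammonia, stood at 9.83 and 9.93 in the aldosterone rats and at 9.80 and 9.38 in the vehicle rats. The groups did not overlap, but the nearest values of the groups, both from rat 1, were almost level. The means were 9.88 ± 0.073 in aldosterone rats and 9.59 ± 0.30 in vehicle rats (SD, n = 2 each). The difference was 0.29, a 1.22-fold higher value with aldosterone, and its 95% interval ran from -0.21 to 0.78. Without vehicle replicate 2 the difference was 0.076, so most of it came from that array. The anion exchanger gene Slc26a3, which marks the same surface cells, stood at 12.75 and 12.61 in aldosterone rats and at 11.96 and 12.30 in vehicle rats. It was the 1 of 9 measured surface colonocyte genes with an unadjusted limma p under 0.05. That rule was passed by 4.53% of all rows and 10.9% of rows with a mean above 4. Over those 9 genes the median difference was 0.067 and the range -0.046 to 0.55, and 6 differences were positive. Their part in the Aqp8 values was not tested. The promoter window of Aqp8, 250 bases before and 50 after the RefSeq start site, is shown because this gene had high values on every array and groups that did not overlap.
Aqp8 (GRCr8 chr1:187424193-187424492, plus strand): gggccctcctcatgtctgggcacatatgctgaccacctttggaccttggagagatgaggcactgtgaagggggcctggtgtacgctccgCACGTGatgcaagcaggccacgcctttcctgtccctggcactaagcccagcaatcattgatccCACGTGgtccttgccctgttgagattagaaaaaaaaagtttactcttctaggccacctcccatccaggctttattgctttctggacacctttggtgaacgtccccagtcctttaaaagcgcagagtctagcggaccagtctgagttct
Capitals mark 2 copies of the E-box CACGTG, the letters bound by clock and other basic helix-loop-helix factors, whose first bases lie at -161 and -98 from the start site.

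The other water-selective channels lay near the floor of the arrays. Aqp1, the channel of endothelium and red cells, stood at 2.53 and 3.63 in the aldosterone rats and at 2.36 and 2.89 in the vehicle rats. The highest value was that of aldosterone rat 2, and the groups overlapped (difference 0.45, interval -0.74 to 1.65). Beside Aqp1, the endothelial genes Vwf, Tie1 and Emcn lay at or below 2.81 on every array, and the red cell exchanger gene Slc4a1 at 2.35 and 2.79 in aldosterone rats and 2.34 and 2.36 in vehicle rats. Aqp2, the vasopressin-regulated channel of the collecting duct, stood at 2.46 and 2.74 in the aldosterone rats and at 2.07 and 2.39 in the vehicle rats. The groups did not overlap, yet all 4 values were close to 2.35, the median of the row means (difference 0.37, interval -0.12 to 0.85). Aqp4, a channel of glia and of the basolateral membrane of epithelia, stood at 1.78 and 1.84 in the aldosterone rats and at 1.80 and 1.76 in the vehicle rats. It was below the 25th percentile of row means, 1.89. The interval of its difference was narrow, from -0.24 to 0.30, but at the floor this does not show a lack of change. Aqp5, the channel of salivary and other glands, stood at 3.03 and 3.62 in the aldosterone rats and at 2.87 and 3.55 in the vehicle rats. In both groups rat 2 had the higher Aqp5 value, and the difference between groups was 0.11 (interval -0.78 to 1.01). Folds are not given for these 4 genes because their levels were close to the floor. Aqp2 and Aqp5 are next to each other on chromosome 7 in RefSeq.

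Among the aquaglyceroporins, Aqp3 had high values on every array. Aqp3, a basolateral channel for water and glycerol, stood at 10.82 and 10.58 in the aldosterone rats and at 10.79 and 11.11 in the vehicle rats. The groups overlapped, with the lowest value in aldosterone rat 2 and the highest in vehicle rat 2. The means were 10.70 ± 0.17 in aldosterone rats and 10.95 ± 0.22 in vehicle rats (SD, n = 2 each), a 1.19-fold lower value with aldosterone. The log2 difference was -0.25, with an interval from -0.71 to 0.21, and it was -0.093 without vehicle replicate 2. Aqp9, an aquaglyceroporin of liver and leukocytes that is also described in goblet cells, stood at 1.95 and 2.14 in the aldosterone rats and at 1.86 and 2.06 in the vehicle rats. Goblet cell genes averaged 6.36 and 7.46 in aldosterone rats and 6.48 and 6.24 in vehicle rats. The 3 measured leukocyte genes averaged 2.73 and 2.95 in aldosterone rats and 2.99 and 2.58 in vehicle rats. The part of either list in the Aqp9 values was not tested. Aqp9 lay near the floor in every rat (difference 0.090, interval -0.28 to 0.46). The promoter window of Aqp3 is shown for comparison with that of Aqp8, since both genes had values above 9 on every array.
Aqp3 (GRCr8 chr5:61040634-61040933, minus strand): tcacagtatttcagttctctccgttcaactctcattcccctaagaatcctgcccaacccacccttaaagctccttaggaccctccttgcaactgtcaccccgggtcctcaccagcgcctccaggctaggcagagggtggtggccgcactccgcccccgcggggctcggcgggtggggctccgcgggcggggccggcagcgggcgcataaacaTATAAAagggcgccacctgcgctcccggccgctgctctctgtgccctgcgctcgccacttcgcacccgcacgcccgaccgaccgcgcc
Capitals mark the TATA box letters TATAAA, which begin at -38 from the start site.

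Aqp7, an aquaglyceroporin best known from fat cells and kidney tubules, split by rat and not by treatment. It stood at 2.27 and 6.83 in the aldosterone rats and at 2.08 and 6.18 in the vehicle rats. In each group rat 1 lay near the floor and rat 2 far above it, so the groups overlapped fully. The gap between the rats was 4.56 in the aldosterone group and 4.10 in the vehicle group. The vehicle gap was the largest of all 19403 rows, where the median absolute gap was 0.18, and the aldosterone gap ranked 4 among them, with a median of 0.14. The mean of the gaps, 4.33, also ranked 1. The labels number the rats within a group and do not say what a number shares across groups. The difference between treatments was 0.42, with an interval from -5.47 to 6.31, and leaving out 1 array moved it between -1.86 (without aldosterone replicate 2) and 2.70 (without aldosterone replicate 1). It was -1.63 without vehicle replicate 1 and 2.47 without vehicle replicate 2.

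Aqp3, next to Aqp7 on chromosome 5 in RefSeq, had a gap of -0.24 in the aldosterone group and 0.32 in the vehicle group, rat 2 minus rat 1. The 4 measured fat cell genes averaged 2.86 and 2.90 in aldosterone rats and 2.90 and 2.78 in vehicle rats. Among them Plin1 and Lep had rat 2 above rat 1 in both groups, as Aqp7 had, by at most 0.21. The median over all rows was also higher in rat 2, at 2.33 and 2.44 in aldosterone rats and 2.22 and 2.43 in vehicle rats. Adipoq was 2.36 and 2.74 in aldosterone rats and 4.08 and 2.71 in vehicle rats, and Cidec was 4.59 and 4.25 in aldosterone rats and 3.47 and 4.13 in vehicle rats. These fat cell genes thus had no common order of rats, and their part in the Aqp7 values was not tested. The named genes next in rank by mean gap were Mcpt1, Npy and Hist1h2af. Mcpt1, a mast cell protease gene, was 6.17 and 2.46 in aldosterone rats and 5.29 and 2.90 in vehicle rats, lower in rat 2 of each group. Hist1h2af, a histone gene, was 4.98 and 2.77 in aldosterone rats and 6.72 and 3.99 in vehicle rats, again lower in rat 2. Lower in the same ranking, at 20 and 23, stood the clock genes Bmal1 and Dbp. Dbp, a clock output factor, was 6.74 and 8.15 in aldosterone rats and 6.67 and 8.68 in vehicle rats. Bmal1, which drives the clock together with the Clock protein, was 8.15 and 6.27 in aldosterone rats and 8.03 and 6.41 in vehicle rats. A list of 18 clock genes was then chosen with these values seen, so its count is a description. Of 14 measured, 12 had the same order of rats in both groups, 7 with rat 2 higher and 5 with rat 2 lower, as did 61.9% of all rows, and Nr1d1 and Npas2 did not. The part of Mcpt1, Hist1h2af and the clock genes in the Aqp7 values was not tested.

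**Figure D2:**
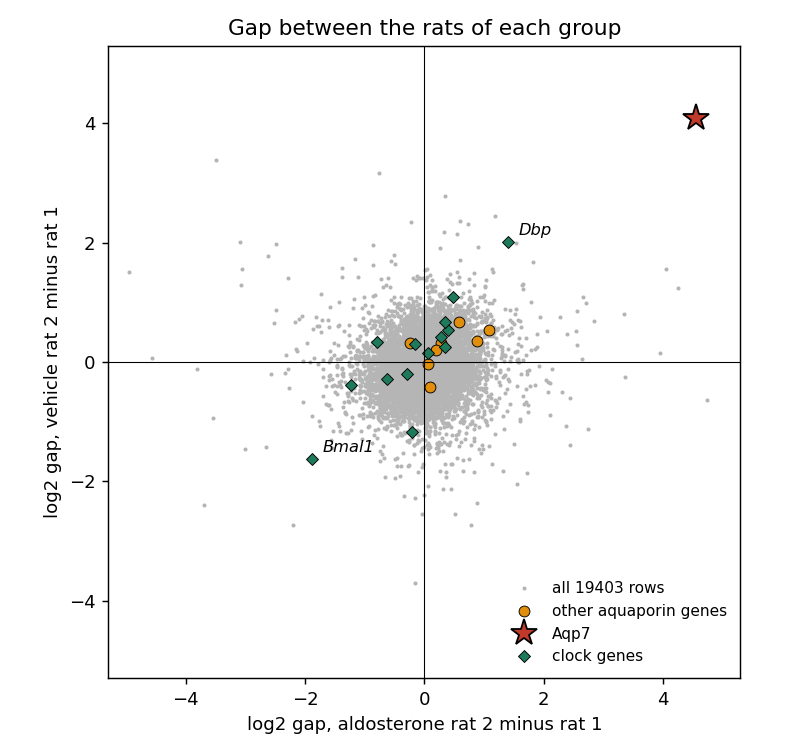
Log2 gap between the rats of a group, rat 2 minus rat 1, in the aldosterone group (horizontal axis) and in the vehicle group (vertical axis). Each grey point is 1 of 19403 rows, orange circles are the other aquaporin genes, green diamonds are 14 clock genes and the star is Aqp7, which lies apart from all rows at 4.56 and 4.10.

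Aqp11, an aquaporin of the endoplasmic reticulum whose loss in mice causes polycystic kidneys, had the largest difference among the 9 genes. It stood at 3.69 and 4.58 in the aldosterone rats and at 4.98 and 5.34 in the vehicle rats. Both aldosterone values lay below both vehicle values, while the aldosterone rats differed from each other by 0.89. The means were 4.13 ± 0.63 in aldosterone rats and 5.16 ± 0.26 in vehicle rats (SD, n = 2 each), a 2.03-fold lower value with aldosterone. The 95% interval of the log2 difference, taken for this gene alone, ran from -1.98 to -0.066. The unadjusted limma p was 0.0412, and 0.173 without vehicle replicate 2, and the gene did not pass after adjustment over all rows (adjusted p = 1.00). An unadjusted p under 0.05 with a lower value in aldosterone rats was found in 2.34% of all rows, and in either direction in 10.9% of the 4815 rows with a mean above 4. The difference was -0.58 without aldosterone replicate 1 and -1.47 without aldosterone replicate 2. The promoter window of Aqp11 is shown because this gene had the smallest unadjusted p of the 9 genes.
Aqp11 (GRCr8 chr1:161467869-161468168, minus strand): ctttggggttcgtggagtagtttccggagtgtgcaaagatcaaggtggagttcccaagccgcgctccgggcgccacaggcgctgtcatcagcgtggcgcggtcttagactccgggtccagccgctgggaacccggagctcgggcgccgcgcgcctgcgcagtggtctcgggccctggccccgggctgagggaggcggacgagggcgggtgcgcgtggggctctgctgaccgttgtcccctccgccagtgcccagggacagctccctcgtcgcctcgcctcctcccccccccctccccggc
No letters are in capitals, as none of the motifs searched occurs in this window. The window holds 72.3% G and C and 32 CG dinucleotides, against medians of 51.7% and 7 over 33469 RefSeq promoter windows, and that of Aqp8 holds 53.7% and 8.

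**Figure D3:**
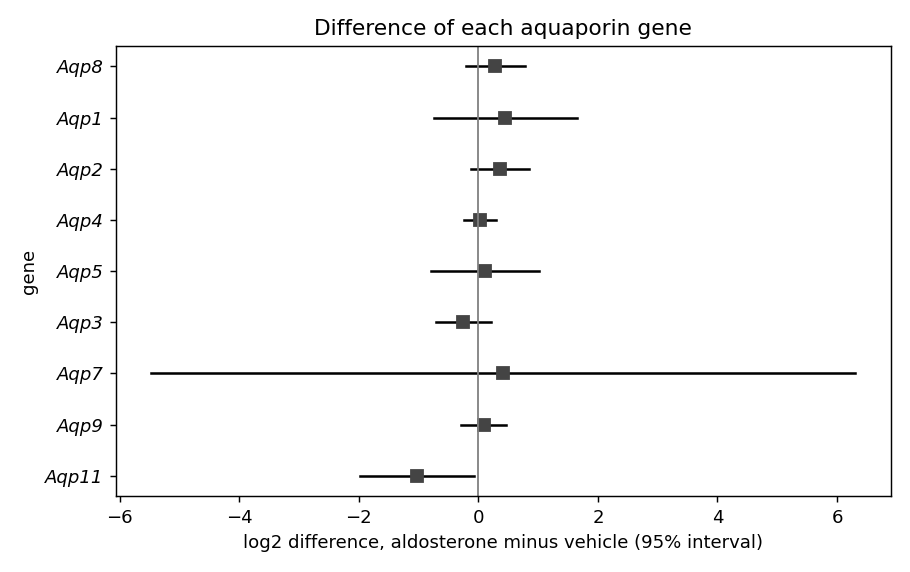
Log2 difference, aldosterone minus vehicle (horizontal axis), for each aquaporin gene, with squares for the estimate and lines for the 95% interval of the limma fit. The interval of Aqp11 alone lies on one side of 0, from -1.98 to -0.066, and that of Aqp7 runs from -5.47 to 6.31.

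Promoter windows were found for 8 of the 9 genes, with 2 windows for Aqp4, and Aqp7 is named only. The windows were searched on both strands for the corticosteroid receptor motif AGAACA and for its inverted repeat with 3 bases between the copies, which contains it. The E-box, the TATA box and the cyclic AMP response element TGACGTCA were searched likewise. The receptor motif was found in the windows of Aqp2 (at -194) and Aqp9 (at -31), and in 20.7% of all windows. The inverted repeat was found in none of the 8 genes and in 0.0149% of all windows. The E-box was found in Aqp8, Aqp2 (at -71) and Aqp5 (at -223), and in 6.42% of all windows. The TATA box was found in Aqp3 and Aqp1 (at -30), and in 14.2% of all windows. The cyclic AMP response element was found in none of the 8 genes and in 1.83% of all windows. These are matches of letters in short windows and do not show binding.

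Lists of genes around the aquaporins gave 0 calls at an adjusted p of 0.05 in both fits. In the list of vasopressin and cyclic AMP signalling, the route that phosphorylates Aqp2 in the kidney, 16 genes were measured and 3 had a mean of 4 or more. None had an unadjusted p under 0.05, and the median difference was 0.0079. Prkar2a, a regulatory subunit gene of protein kinase A, stood at 6.12 and 5.65 in aldosterone rats and at 5.55 and 5.20 in vehicle rats (difference 0.51). Prkaca, its catalytic subunit gene, stood at 4.30 and 5.11 in aldosterone rats and at 5.23 and 4.95 in vehicle rats. Adcy6, which encodes an adenylyl cyclase, stood at 6.78 and 7.21 in aldosterone rats and at 7.01 and 7.39 in vehicle rats. Prkar2a was the only one of these 3, and of the 16, whose groups did not overlap. Groups did not overlap in 27.8% of all rows and 32.1% of rows with a mean above 4. The vasopressin receptor genes Avpr1a, Avpr1b and Avpr2 all had means below 3.

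Of 16 measured genes of vesicle trafficking and sorting, which carry channels to and from the membrane, 1 was higher and 1 lower in aldosterone rats at an unadjusted p under 0.05, and the median difference was 0.11. These 2 of 16 stand beside 4.53% of all rows and 10.9% of rows with a mean above 4. The groups did not overlap in 6 of the 16, beside 27.8% of all rows and 32.1% of rows with a mean above 4. The 1 that was lower at an unadjusted p under 0.05 was Sipa1l1, named here after its values were seen, with a mean of 3.18 and a difference of -0.51. Rab11b, a GTPase gene of recycling endosomes, stood at 8.05 and 7.73 in aldosterone rats and at 7.41 and 7.25 in vehicle rats, a 1.48-fold higher value (interval of the log2 difference 0.13 to 1.00, adjusted p = 0.932). Its paralogue Rab11a stood at 9.09 and 8.93 in aldosterone rats and at 9.22 and 9.22 in vehicle rats. Vamp8, which encodes a vesicle fusion protein, stood at 9.60 and 9.99 in aldosterone rats and at 9.39 and 9.58 in vehicle rats. The differences of Rab11b and Rab11a had opposite signs.

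Of 10 measured genes listed for the tonicity response and osmolyte handling, 1 had an unadjusted p under 0.05. The same held for 4.53% of all rows and 10.9% of rows with a mean above 4. The list is broader than the gain of organic osmolytes, as it also holds Slc2a1, Aldoa and Lrrc8d. Their differences were -0.27, -0.19 and -0.23. Negative differences were found in 7 of the 10 (median -0.17), and in 8089 of 19403 rows in all. Akr1b1, the aldose reductase gene that makes the osmolyte sorbitol, stood at 5.85 and 5.78 in aldosterone rats and at 4.78 and 4.13 in vehicle rats. Both aldosterone values exceeded both vehicle values, and the difference was 1.36 (interval 0.68 to 2.04). It did not pass after adjustment (adjusted p = 0.757, and 0.313 with the intensity trend). The glucose transporter gene Slc2a1 stood at 9.62 and 9.96 in aldosterone rats and at 10.08 and 10.03 in vehicle rats. Aldoa, a glycolytic aldolase gene, stood at 6.31 and 6.55 in aldosterone rats and at 6.73 and 6.51 in vehicle rats. Akr1b1 thus stood higher in aldosterone rats, while the mean differences of Slc2a1 and Aldoa were negative.

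Of 11 measured genes that handle glycerol, the solute of Aqp3, Aqp7 and Aqp9, 1 was lower with aldosterone at an unadjusted p under 0.05. Lower values at that rule were found in 2.34% of all rows. Rows with a mean above 4 passed it in either direction in 10.9%. The median difference of the 11 was -0.0045. The groups did not overlap in 5 of the 11, beside 27.8% of all rows and 32.1% of rows with a mean above 4. Gk, which encodes glycerol kinase, stood at 8.20 and 7.47 in aldosterone rats and at 7.12 and 7.13 in vehicle rats (difference 0.71, interval -0.038 to 1.46). Gpd1, the cytosolic glycerol 3-phosphate dehydrogenase gene, stood at 5.66 and 6.16 in aldosterone rats and at 6.74 and 6.42 in vehicle rats (difference -0.66, interval -1.29 to -0.040). Dgat2, which encodes an enzyme of triglyceride synthesis, stood at 4.62 and 3.91 in aldosterone rats and at 5.05 and 4.86 in vehicle rats (difference -0.69, interval -1.44 to 0.065). These 3 genes were named for their small p, which favours groups that do not overlap. Gk was higher and Gpd1 and Dgat2 lower in both aldosterone rats, and their adjusted p was 1.00.

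**Figure D4:**
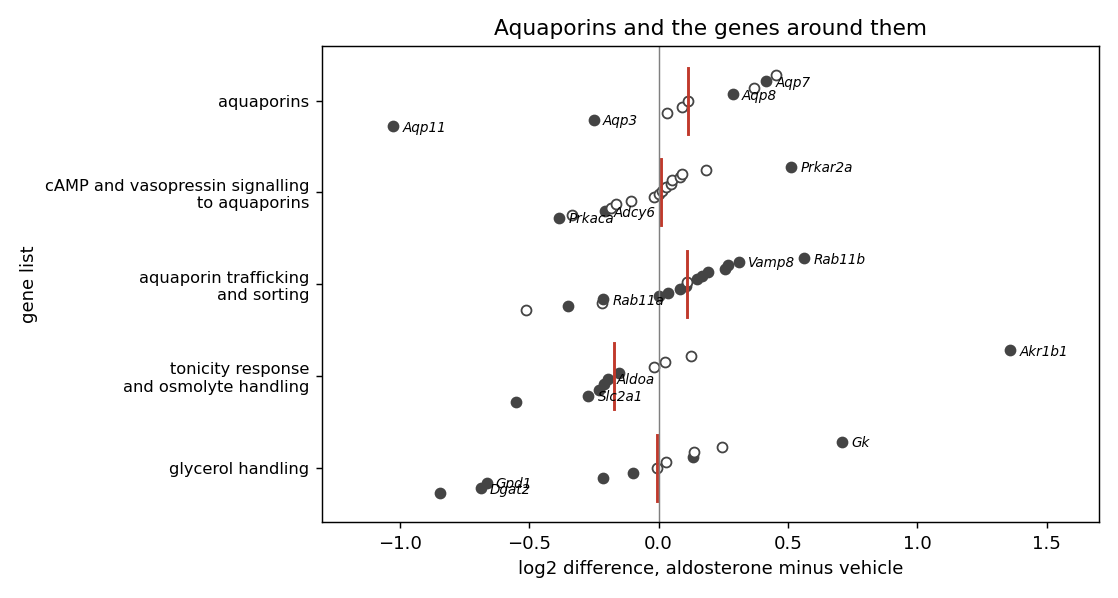
Log2 difference, aldosterone minus vehicle (horizontal axis), for the aquaporin genes and the measured genes of 4 lists around them, with filled points for genes with a mean of 4 or more, open points for the others and a red line at each list's median. Medians lie between -0.17 and 0.11, and Akr1b1 at 1.36 and Aqp11 at -1.02 lie farthest out.

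The profiles over the 4 arrays were compared between each aquaporin with a mean of 4 or more and 4132 such genes, by the root mean square distance of log2 values centred on each gene's mean. Nearest to Aqp8 were Tbp (0.0092) and Emc3 (0.026), and nearest to Aqp3 were Pdgfa (0.021) and Sbno2 (0.030). Nearest to Aqp11 were Crip2 (0.12) and Agmo (0.13). Nearest to Aqp7 were Npy, at a distance of 1.07, and Dbp, at 1.38, so no gene came close to its profile. The neuropeptide gene Npy stood at 3.21 and 7.46 in aldosterone rats and at 4.97 and 6.21 in vehicle rats. With 4 arrays such likeness is a description only.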

How the data were processed

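Total RNA of surface colonocytes was depleted of ribosomal RNA and hybridized to Affymetrix rat exon arrays, with 4 rats on 4 arrays, per the labels. The log2 expression values were deposited by the authors. The submitters' processing notes name RMA, Affymetrix Expression Console and Partek without versions, order or roles. RMA draws probe distributions of arrays together and gives no detection calls, so rows near the floor were recognised by level. The log2 scale was read from the range of values, 1.36 to 13.7. The genome build of the rows is not given in the sources used here.

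Of 19403 rows, 13327 had 1 symbol in the platform's annotation, 620 several and 5456 none here. Entrez IDs were checked against RefSeq (GRCr8). Where several rows named 1 gene, that of highest mean stood for it. Promoter windows are RefSeq's for GRCr8.

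All rows entered 1 fit in R 4.3.3 with limma 3.58.1 (lmFit, eBayes, constant prior variance, treatment as the only term, two-sided), with Benjamini-Hochberg adjustment over all rows and a threshold of 0.05. The fit was tested on simulated data. Tables and plots used Python 3.11.15, pandas 2.3.3 and matplotlib 3.10.9. Named were all members, the 3 genes of each of 4 lists with a mean of 4 or more and the smallest unadjusted p, 5 check genes and the 2 nearest profiles per member. Members and lists were chosen with earlier results of these data known. Named outside this rule were Bmal1 and other clock genes, Mcpt1, Hist1h2af, Sipa1l1, Aqp12a, Aqp6, Mip, the marker genes of cell types and the vasopressin receptors, of which the clock genes, Mcpt1, Hist1h2af and Sipa1l1 were chosen after their values were seen. Alternatives were quantile normalization, median centring, filters at the 25th percentile and at a mean of 4, the replicate number as a block, each array left out, an intensity trend, a robust prior, no moderation and the mean over a gene's rows. The rats of a group are separate animals per the labels, and the number of arrays limits the precision.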

Additional observations from a re-analysis of the deposited data

How the results depend on the processing

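No aquaporin gene and no gene of the 4 surrounding lists passed an adjusted p of 0.05 under any of the 13 alternatives. Over all rows, the count at that threshold was 21 with the intensity trend and 12 when dim rows (mean below 4) were dropped. That count was 0 under the other 11. Dropping dim rows leaves fewer rows to test and also refits the prior variance. The unadjusted limma p went from 0.000107 to 1.22e-06 for Scnn1g and from 4.29e-05 to 9.59e-05 for Sgk1. Which of the changes gave the 12 was not tested. In the constant-prior fit of all rows, 879 of 19403 rows had an unadjusted p under 0.05. Among the 4815 rows that are not dim, 523 (10.9%) did so in that fit. The count at that unadjusted threshold was 295 of the 4815 when dim rows were dropped before the fit. For the aquaporin genes that count was 2 with the replicate block (Aqp11 and Aqp2), 0 without moderation and between 0 and 1 with 1 array left out (0 without vehicle replicate 2). The gene counted was not always Aqp11: it was Aqp2 with quantile normalization, Aqp8 without vehicle replicate 1 and Aqp1 without aldosterone replicate 1, and the unadjusted p of Aqp11 ran from 0.00354 to 0.173. Aqp11 kept its sign under every alternative, from -1.47 to -0.58, as did Aqp8 (0.076 to 0.50) and Aqp3 (-0.41 to -0.093). Aqp2 kept its sign under the 12 alternatives that held its row (0.21 to 0.53). With 1 array left out the sign turned for Aqp7 (-1.86 to 2.70), Aqp1 (-0.094 to 1.00), Aqp5 (-0.22 to 0.45), Aqp9 (-0.0093 to 0.19), Adcy6 (-0.42 to 0.0072) and Prkaca (-0.79 to 0.022). Aqp4 was -0.025 with arrays centred on their medians. The cause of these turns was not tested. The replicate number is shared between groups in the labels, but nothing says that it pairs rats. Gaps between rat 2 and rat 1 correlated between the groups at 0.15 over all rows and 0.093 over the 4815 rows that are not dim, and with the block the count over all rows at an adjusted p of 0.05 was 0. Of the 8 nearest-profile pairs, 8 were kept with arrays centred and 3 with quantile normalization. With an array left out, the single array of a group is assumed to vary like the other group. No detection calls or scanner signals were used here.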

Other observations

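The array also held 3 family rows outside the 9 genes described. Aqp12a, whose product is known from the exocrine pancreas, stood at 3.61 and 3.71 in aldosterone rats and at 4.05 and 4.37 in vehicle rats. Its groups did not overlap, with lower values in aldosterone rats, as in 11.1% of all rows. The log2 difference was -0.55 (95% interval -0.96 to -0.13). The unadjusted limma p of Aqp12a was 0.0210, smaller than the 0.0412 of Aqp11. Aqp12a did not pass after adjustment over all rows in limma, where its adjusted p was 0.909. Aqp6, an intracellular channel of the kidney, stood at 2.53 and 2.42 in aldosterone rats and at 2.07 and 2.34 in vehicle rats. The groups of Aqp6 did not overlap either, but with higher values in aldosterone rats, as in 16.7% of all rows. Mip, the lens aquaporin also called Aqp0, stood at 2.15 and 2.44 in aldosterone rats and at 2.13 and 2.42 in vehicle rats. Aqp6 and Mip were near the floor on all 4 arrays.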
